A study of Rattus norvegicus with 9 samples.

Results

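The genes of transforming growth factor beta (TGF-β), bone morphogenetic protein (BMP) and activin signaling were followed in RNA-seq of 3 types of cultured rat fibroblasts (Fb). The group was a list of 44 symbols, namely ligands, receptors, secreted antagonists, latent binding proteins and feedback targets, and all 44 were among the 32883 genes in the tables. Fb-Epn were grown from the epineurium of the sciatic nerve, which is its outer connective tissue sheath, Fb-Par from the parenchyma inside that sheath, and Fb-Skn from abdominal skin freed of subcutaneous fat. There were 3 libraries of each type, 9 in all. All cells came from untreated wild-type male Lewis rats of 10 weeks of age. The nerves were taken from a pair of rats and the skin from 1 other rat, so that the 3 libraries of a type could not each come from a different animal, and whether they were separate cultures is not stated in the sources used here. The p-values therefore measure only the spread between these libraries, which may be technical. Tissue, body site and rat changed together between Fb-Skn and the nerve-derived types and cannot be told apart. The cells were selected by adherence to uncoated plastic in serum-containing medium and were passaged once, with no sorting by a marker.

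Ligands of this family bind pairs of type I and type II serine/threonine kinase receptors, which phosphorylate Smad proteins that enter the nucleus and regulate transcription. The TGF-βs and activins act mainly through Smad2 and Smad3, and the BMPs mainly through Smad1, Smad5 and Smad9. Much of the control lies outside the cell. TGF-βs are secreted in a latent complex that latent TGF-β binding proteins attach to the matrix, while antagonists such as noggin, gremlin and follistatin bind BMPs or activins before they reach a receptor. In fibroblasts the TGF-β branch is best known for driving matrix production, and the BMP branch for inducing the Id genes.

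Total counts per library were between 10084584 and 12310506, and the libraries of 1 type differed from each other by more than sampling noise (mean chi-square per gene of 3.06 to 5.63 across pairs, where 1 is the value from sampling alone). All 8 fibroblast markers were detected in every type. Their summed level was 38905 to 39122 TPM (a length-normalized level that sums to 1000000 in each library) in Fb-Epn, 31465 to 32463 in Fb-Par and 39142 to 40263 in Fb-Skn. Markers of other cell types were also present and differed between types. The 7 macrophage and leukocyte markers were all higher in Fb-Epn (1159.9 to 1229 TPM summed) than in Fb-Par (227 to 243) and in Fb-Par than in Fb-Skn (76.2 to 82.4). The 7 Schwann cell markers summed to 186 to 198 TPM in Fb-Epn, 255 to 262 in Fb-Par and 10.5 to 13.2 in Fb-Skn, where Sox10, Erbb3 and Cdh19 were at 0. S100b made up most of the Fb-Epn sum (129.6 TPM on average, against 119 in Fb-Par). It did not pass between Fb-Epn and Fb-Par in the test described below, while the other 6 markers were lower in Fb-Epn. The 7 pericyte and smooth muscle markers summed to 43.6 to 50.7 TPM in Fb-Epn, 319 to 336 in Fb-Par and 149.9 to 155 in Fb-Skn, where Rgs5 and Kcnj8 were at 0. Most of the Fb-Skn sum came from Myh11 (125 TPM on average). Of the 7 markers, 5 were higher and 2 lower in Fb-Epn than in Fb-Skn (adjusted p under 0.01 in the test described below). The 9 endothelial markers were low, between 24.3 and 38.5 TPM summed in the 9 libraries, with Cdh5, Esam, Emcn and Cldn5 at 0 in Fb-Skn and Cldn5 at 0 in Fb-Par. Egfl7 made up most of the Fb-Skn sum (29.3 TPM on average). Of the 5 endothelial markers with enough counts to be tested, 4 were higher and 1 lower in Fb-Epn than in Fb-Skn. Of the 6 perineurial markers, which summed to 156 to 163 TPM in Fb-Epn, 42.1 to 47.3 in Fb-Par and 76.2 to 84.6 in Fb-Skn, Lypd2 was at 0 in every type, Krt19 at 0 in Fb-Epn and Cldn1 at 0 in Fb-Skn. Slc2a1 made up most of this sum (145, 34.9 and 69.0 TPM on average), while Cldn1, Krt19 and Moxd1 were below 1 TPM on average in every type, with means in Fb-Par above those in Fb-Epn. The 6 keratinocyte markers summed to at most 4.16 TPM, with Krt15 and Krt1 at 0 in every type. The 6 cycling cell markers were highest in Fb-Epn (171 to 186 TPM summed), followed by Fb-Skn (79.5 to 84.6) and Fb-Par (28.7 to 30.4). In such bulk samples, fewer cells of a type and less RNA per cell cannot be told apart, and the part of these other cells in the differences described here was not tested.

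**Figure D1:**
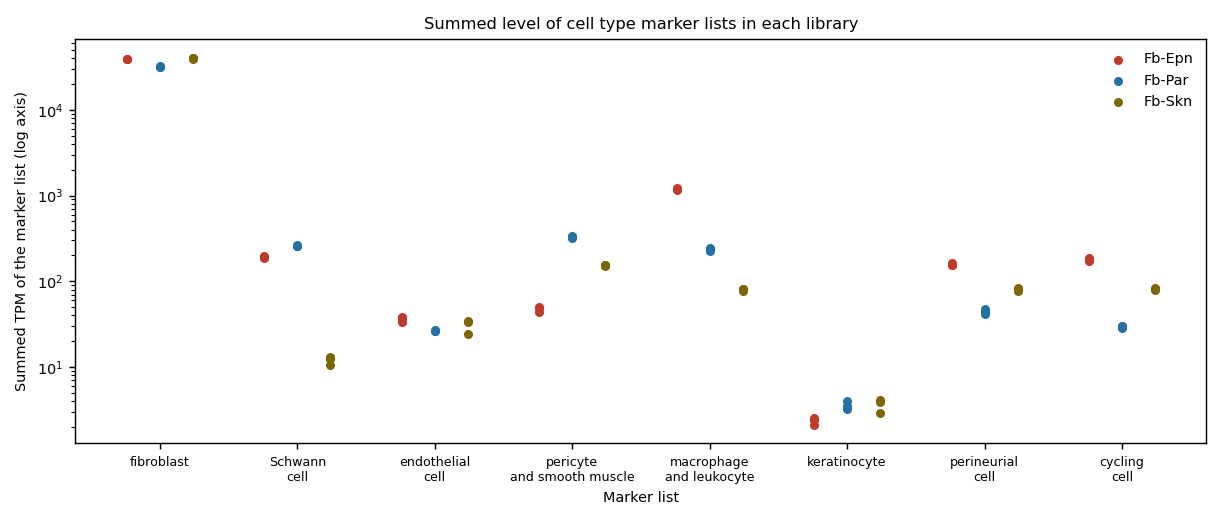
Summed TPM of 8 marker lists (log axis), with 1 point per library and a colour for each fibroblast type. The macrophage and cycling cell lists were highest in the 3 Fb-Epn libraries, the Schwann cell and pericyte lists in the 3 Fb-Par libraries, and the fibroblast list was at 31465 TPM or more in all 9.

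Most of the tested signaling genes differed between the types, and in both comparisons with Fb-Epn about as many were higher as lower in it. Of the 44 genes, 41 had enough counts to be tested, 37 of them with at least 10 counts in every library. Bmp5, Bmp7 and Gdf10 were not tested, and Bmp2, Gdf5, Gdf6 and Chrdl1 had fewer than 10 counts in some library. With edgeR's quasi-likelihood test and Benjamini-Hochberg adjustment over all 13273 tested genes, 29 members passed an adjusted p of 0.01 in Fb-Epn against Fb-Skn, where 43.9% of all tested genes passed. Of these, 14 were higher in Fb-Epn (23.0% of all tested genes were) and 15 were lower (20.9% of all). Between Fb-Epn and Fb-Par 31 members passed (38.8% of all tested genes), 16 of them higher in Fb-Epn (20.2% of all) and 15 lower (18.6% of all). Between Fb-Par and Fb-Skn 30 members passed (45.6% of all), 19 higher in Fb-Par (23.2% of all) and 11 lower (22.4% of all). As shares of the 41 tested members these counts were 70.7%, 75.6% and 73.2%. The median absolute log2 fold change of the tested members was 0.67, 0.65 and 0.49 in the same order, against 0.33, 0.28 and 0.34 for all tested genes. Only genes with enough counts could be tested, and the members were not matched to other genes for expression level. With the deposited TPM values in place of counts, the share of all called genes that was higher in the nerve-derived type was 69.0% in place of 52.3% for Fb-Epn and 66.9% in place of 50.8% for Fb-Par, both against Fb-Skn. For the members it was 55.2% in place of 48.3% and 70.0% in place of 63.3%.

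Genes with an adjusted p under 0.01 and a more than 4-fold difference (log2 fold change above 2 or below -2) are called differentially expressed (DE) here. There were 5 DE members between Fb-Epn and Fb-Skn (8.44% of all tested genes were DE), 5 between Fb-Epn and Fb-Par (6.48%) and 7 between Fb-Par and Fb-Skn (8.54%). They were 9 genes in all: the ligands Bmp2, Bmp4 and Gdf5, the co-receptor Tgfbr3, the antagonists Nog, Grem1 and Chrdl1, the latent binding protein Ltbp1 and the target gene Tgfbi. In the rn6 build of the count tables, the most distinct of them lie at chr10:76811759-76813386 (Nog), chr3:105203309-105214989 (Grem1), chrX:114554359-114658931 (Chrdl1) and chr15:20776054-20822740 (Bmp4), and counts were summed over whole genes. Of the 41 tested members, 19 passed an adjusted p of 0.01 in all 3 comparisons, and 5 passed in none, namely Tgfb1, Gdf6, Gdf15, Smad7 and Id1. The matching counts over all tested genes were not taken, so these counts describe the members only and cannot be called unusual. The highest mean TPM was in Fb-Epn for 15 members, in Fb-Par for 17 and in Fb-Skn for 9. The same split was not taken over all tested genes. With TPM, more of all called genes were higher in the nerve-derived types than with counts, as given above, so the split is not specific to the members. The libraries of a type lay close together: for the 37 members with a mean above 10 TPM, the coefficient of variation within a type had a median of 4.75%.

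**Figure D2:**
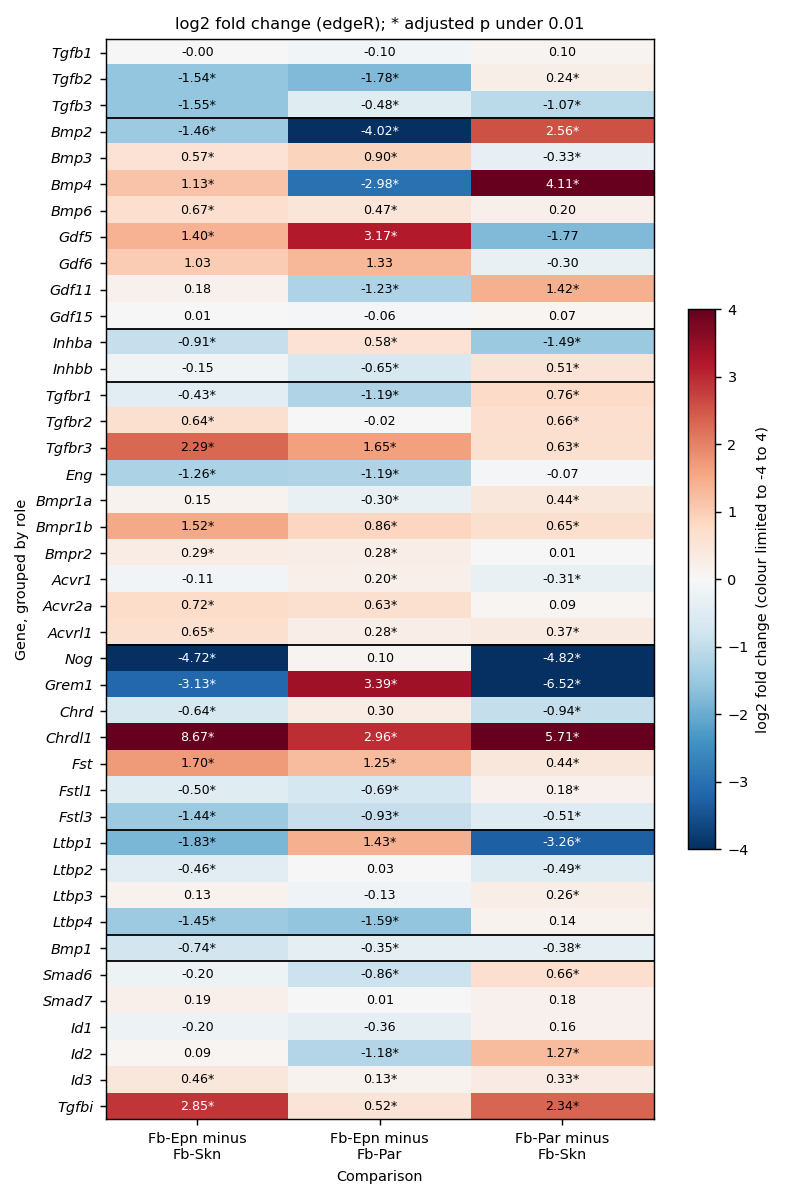
Fitted log2 fold change of the 41 tested members (rows, grouped by role, with TGF-β ligands at the top and feedback and target genes at the bottom) in the 3 comparisons (columns), red where the first type was higher and blue where it was lower, with an asterisk for an adjusted p under 0.01. The deepest colours are in the rows of Bmp2, Bmp4, Nog, Grem1 and Chrdl1, and the row of Grem1 runs from -6.52 to 3.39.

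The genes with the largest differences were secreted BMP antagonists, and each type had its own combination of them. Nog encodes noggin, which binds BMPs such as BMP2 and BMP4 and blocks their receptor contacts. Its level was 5.50, 8.12 and 7.49 TPM in Fb-Epn, 5.38, 7.25 and 7.38 TPM in Fb-Par, and 170.2, 167 and 169.9 TPM in Fb-Skn. All 3 Fb-Skn libraries were far above the 6 nerve-derived libraries, which overlapped with each other. Nog was 26.3-fold lower in Fb-Epn than in Fb-Skn (log2 fold change -4.72, SE 0.11, edgeR adjusted p = 4.4e-14) and 28.2-fold lower in Fb-Par than in Fb-Skn (log2 fold change -4.82, SE 0.11, adjusted p = 3.3e-14). Between Fb-Epn and Fb-Par its log2 fold change was 0.10 (SE 0.15, adjusted p = 0.61).

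Grem1 encodes gremlin 1, another antagonist of BMP2 and BMP4. It was measured at 83.1, 84.4 and 81.6 TPM in Fb-Epn, at 8.19, 7.91 and 7.73 TPM in Fb-Par, and at 635, 671 and 670.1 TPM in Fb-Skn. The 3 types did not overlap, with Fb-Skn highest and Fb-Par lowest. edgeR gave a log2 fold change of -3.13 for Fb-Epn against Fb-Skn (SE 0.031, adjusted p = 8.2e-18), 3.39 for Fb-Epn against Fb-Par (SE 0.042, adjusted p = 8.8e-17) and -6.52 for Fb-Par against Fb-Skn (SE 0.041, adjusted p = 7.6e-20). The last corresponds to a 91.9-fold lower level in Fb-Par.

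Chrdl1 encodes chordin-like 1, a secreted BMP-binding protein with chordin-type repeats. Its level was 87.0, 94.6 and 87.8 TPM in Fb-Epn and 13.2, 11.4 and 10.2 TPM in Fb-Par. In Fb-Skn it was 0.0894, 0.256 and 0.254 TPM, from 2, 5 and 5 counts. Fb-Epn was highest and Fb-Skn, where Nog was highest, near the limit of detection, with no overlap between types. Fitted log2 fold changes were 8.67 for Fb-Epn against Fb-Skn (SE 0.16, adjusted p = 4.4e-15), 2.96 for Fb-Epn against Fb-Par (SE 0.084, adjusted p = 6.9e-13) and 5.71 for Fb-Par against Fb-Skn (SE 0.21, adjusted p = 8.9e-12). The ratio of Fb-Epn to Fb-Skn from the summed counts, 5831 against 12, had an exact 95% counting interval of 239.7 to 811, which covers counting error only.

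Bmp4, a ligand that noggin and gremlin 1 bind, was highest in Fb-Par, where Grem1 was lowest. Its level was 3.32, 3.43 and 3.28 TPM in Fb-Epn, 26.8, 27.5 and 25.8 TPM in Fb-Par, and 1.87, 1.07 and 1.16 TPM in Fb-Skn. No library of Fb-Par overlapped with another type, and the 3 Fb-Epn libraries were also above the 3 Fb-Skn libraries. The log2 fold change was -2.98 for Fb-Epn against Fb-Par (SE 0.15, adjusted p = 5.4e-10), 4.11 for Fb-Par against Fb-Skn (SE 0.18, adjusted p = 5.2e-11) and 1.13 for Fb-Epn against Fb-Skn (SE 0.21, adjusted p = 0.00036). Levels of Bmp4 below 4 TPM in Fb-Epn and Fb-Skn compare with 83.0 ± 1.39 (SD, n = 3) and 659 ± 20.5 TPM (SD, n = 3) of Grem1 in the same types.

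The promoters of these 4 genes are shown because the 3 antagonists had the largest differences among the members and Bmp4 is a ligand that they bind. Each is the 250 bases before the annotated start in the RefSeq annotation of build GRCr8, written 5′ to 3′ on the strand of the gene. Capitals mark the GC-rich BMP-responsive element GGCGCC or the short Smad-binding element CAGACA, read as TGTCTG on the other strand. Nog lies at chr10:74627502-74627751 (minus strand), Grem1 at chr3:120978320-120978569 (minus strand), Chrdl1 at chrX:111789662-111789911 (minus strand) and Bmp4 at chr15:22101934-22102183 (minus strand).
Nog: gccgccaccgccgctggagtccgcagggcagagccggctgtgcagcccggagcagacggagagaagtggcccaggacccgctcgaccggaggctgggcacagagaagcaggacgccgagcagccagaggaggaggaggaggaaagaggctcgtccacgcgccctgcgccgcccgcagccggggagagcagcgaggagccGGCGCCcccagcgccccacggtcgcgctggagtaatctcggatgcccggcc
Grem1: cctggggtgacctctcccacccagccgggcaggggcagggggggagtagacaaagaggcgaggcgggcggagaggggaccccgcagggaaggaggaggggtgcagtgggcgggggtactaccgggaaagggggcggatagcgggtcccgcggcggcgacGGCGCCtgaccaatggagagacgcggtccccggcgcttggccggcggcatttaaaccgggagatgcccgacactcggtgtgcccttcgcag
Chrdl1: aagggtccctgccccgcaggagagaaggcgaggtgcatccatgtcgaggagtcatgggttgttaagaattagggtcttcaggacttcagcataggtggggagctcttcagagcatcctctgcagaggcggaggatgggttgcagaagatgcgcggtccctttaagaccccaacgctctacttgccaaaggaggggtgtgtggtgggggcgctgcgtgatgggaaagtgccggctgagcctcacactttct
Bmp4: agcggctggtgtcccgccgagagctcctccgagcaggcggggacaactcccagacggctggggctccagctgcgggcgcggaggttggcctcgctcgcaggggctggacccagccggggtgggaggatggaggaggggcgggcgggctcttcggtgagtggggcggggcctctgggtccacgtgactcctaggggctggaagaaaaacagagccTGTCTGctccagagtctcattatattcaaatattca
GGCGCC began 51 bases before the start in Nog and 91 bases before it in Grem1, and TGTCTG began 36 bases before the start in Bmp4. None of the motifs searched was in the Chrdl1 window. RefSeq promoters were found for 34 of the 44 members. GGCGCC, which reads the same on both strands, was in 9 of the 34 (26.5%) and in 8.69% of all 33469 promoters. Among the 7 DE members with a promoter it was in 4, namely Nog, Grem1, Tgfbr3 and Tgfbi. CAGACA or TGTCTG was in 2 of the 34 members (5.88%) and in 17.2% of all promoters, and the palindromic Smad-binding element GTCTAGAC was in none of the 34 and in 0.173% of all. The members' promoters were richer in G and C (median 61.6%) than all promoters (median 51.2%), a composition that bears on how often a GC-rich motif occurs, and a match is a description of the letters only.

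**Figure D3:**
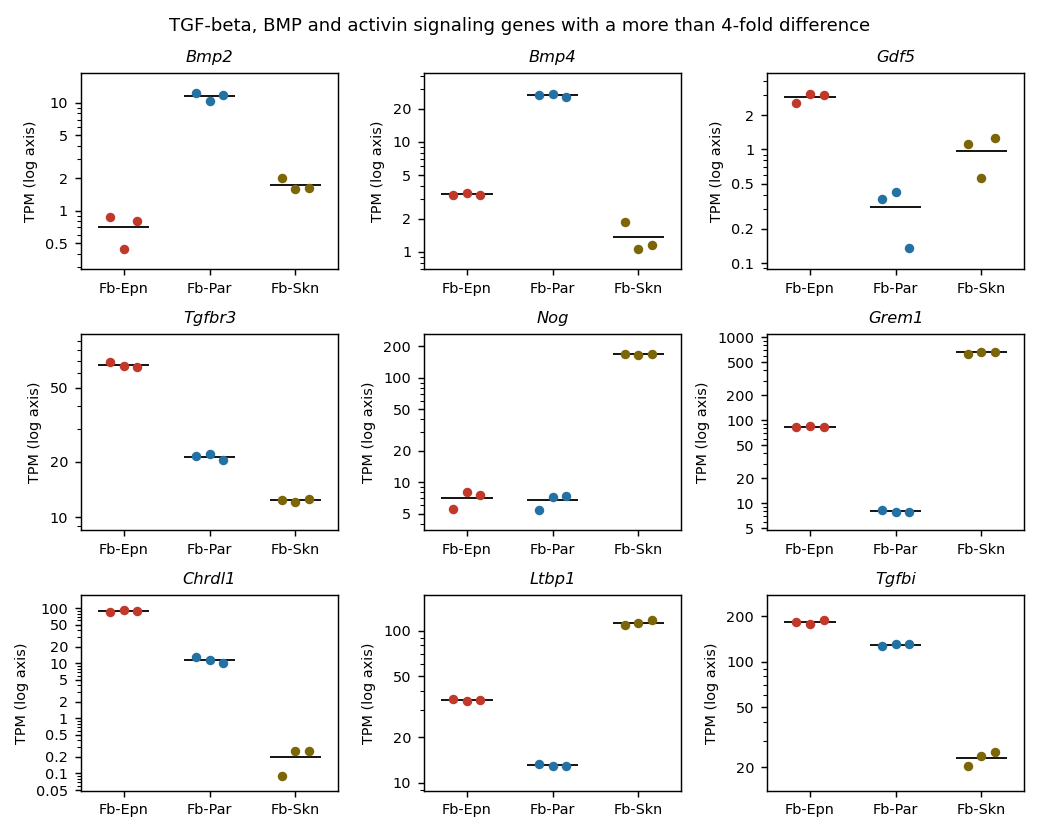
Level (TPM, log axis that differs between panels) of the 9 DE members in each library, with points for libraries and a bar for the mean of 3. Nog, Grem1 and Ltbp1 were highest in the Fb-Skn libraries, Bmp2 and Bmp4 in the Fb-Par libraries, and Gdf5, Tgfbr3, Chrdl1 and Tgfbi in the Fb-Epn libraries.

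Fst, Fstl1, Fstl3 and Chrd complete the secreted antagonists and follistatins, and with Nog, Grem1 and Chrdl1 all 7 passed between Fb-Epn and Fb-Skn and between Fb-Par and Fb-Skn, while 5 of 7 passed between Fb-Epn and Fb-Par. Of all tested genes, 43.9%, 45.6% and 38.8% passed in these comparisons, in the same order. Fst encodes follistatin, which sequesters activins. Fst was at 55.2, 50.1 and 59.4 TPM in Fb-Epn, 24.8, 21.7 and 22.8 TPM in Fb-Par and 14.1, 17.6 and 14.5 TPM in Fb-Skn, so that Fb-Epn was highest with no overlap. Its log2 fold change was 1.70 for Fb-Epn against Fb-Skn (adjusted p = 1.2e-08), 1.25 for Fb-Epn against Fb-Par (adjusted p = 2.3e-07) and 0.44 for Fb-Par against Fb-Skn (adjusted p = 0.0066), and the last call was lost in 7 of 19 alternative analyses (highest adjusted p = 0.028).

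Fstl3, a follistatin-like protein that also binds activins, had the opposite order. Its mean was 49.7 ± 5.05 TPM in Fb-Epn, 95.2 ± 3.86 TPM in Fb-Par and 122 ± 7.93 TPM in Fb-Skn (SD, n = 3 each), and it passed in all 3 comparisons. Chrd, which encodes the BMP antagonist chordin, was low, at 6.89, 10.6 and 8.55 TPM in Fb-Epn, 7.48, 6.71 and 7.11 TPM in Fb-Par and 12.7, 12.7 and 11.5 TPM in Fb-Skn. It was higher in Fb-Skn than in Fb-Epn (log2 fold change -0.64 for Fb-Epn against Fb-Skn, adjusted p = 0.0012) and than in Fb-Par (log2 fold change -0.94 for Fb-Par against Fb-Skn, adjusted p = 4.8e-05). The Fb-Epn call for Chrd was lost when the TPM values were tested in place of counts (highest adjusted p = 0.015).

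Fstl1, a secreted glycoprotein of the follistatin family, was the most highly expressed of all members. It was measured at 1964, 1946 and 1922 TPM in Fb-Epn, 3137, 3139 and 3173 TPM in Fb-Par and 2366, 2559 and 2582 TPM in Fb-Skn. The types did not overlap, with Fb-Par highest. edgeR gave a log2 fold change of -0.69 for Fb-Epn against Fb-Par (SE 0.024, adjusted p = 5.6e-12), -0.50 for Fb-Epn against Fb-Skn (SE 0.024, adjusted p = 1.9e-10) and 0.18 for Fb-Par against Fb-Skn (SE 0.024, adjusted p = 1.2e-05).

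Among the TGF-β ligands, which signal through Tgfbr2 and Tgfbr1, Tgfb3 was the most abundant in every type and Tgfb2 and Tgfb3 were lowest in Fb-Epn. Tgfb3 was at 358, 355 and 368 TPM in Fb-Epn, 503, 507 and 509 TPM in Fb-Par and 926, 975 and 982 TPM in Fb-Skn. The 3 types were separate, with Fb-Skn highest. Its log2 fold change was -1.55 for Fb-Epn against Fb-Skn (SE 0.027, adjusted p = 2.4e-15), -0.48 for Fb-Epn against Fb-Par (SE 0.026, adjusted p = 1.2e-09) and -1.07 for Fb-Par against Fb-Skn (SE 0.026, adjusted p = 8.7e-14). Tgfb2 was at 75.1, 70.0 and 75.4 TPM in Fb-Epn, 255, 257 and 251 TPM in Fb-Par and 181, 199 and 201 TPM in Fb-Skn. Unlike Tgfb3 it was highest in Fb-Par, although the difference from Fb-Skn was small (log2 fold change 0.24, adjusted p = 6.0e-05) beside that between Fb-Epn and Fb-Par (log2 fold change -1.78, adjusted p = 3.5e-14). Tgfb1, the best known of the 3 isoforms, was between 114 and 155 TPM in all 9 libraries and passed in no comparison, with log2 fold changes from -0.10 to 0.10.

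Of the 11 BMP and GDF ligands, 8 were tested. Bmp2, which together with BMP4 drives bone and cartilage formation, was highest in Fb-Par as Bmp4 was. Its level was 0.873, 0.441 and 0.801 TPM in Fb-Epn, from 14, 8 and 13 counts, 12.3, 10.5 and 11.8 TPM in Fb-Par, and 2.01, 1.58 and 1.63 TPM in Fb-Skn. The Fb-Par libraries were above all others, and Fb-Epn was lowest. Fitted log2 fold changes were -4.02 for Fb-Epn against Fb-Par (SE 0.22, adjusted p = 1.1e-09), 2.56 for Fb-Par against Fb-Skn (SE 0.19, adjusted p = 3.5e-08) and -1.46 for Fb-Epn against Fb-Skn (SE 0.26, adjusted p = 0.00022). The pericyte and Schwann cell marker lists were also highest in Fb-Par, and Rgs5 and Sox10, which were at 0 in Fb-Skn, were not at 0 there, at 14.9 and 30.9 TPM on average. Their part in the higher Bmp2 and Bmp4 was not tested.

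Gdf5, a growth factor of joints and tendon, was lowest in Fb-Par, in contrast to Bmp2 and Bmp4. It was at 2.54, 3.08 and 3.04 TPM in Fb-Epn, from 19, 26 and 23 counts. In Fb-Par it was at 0.368, 0.425 and 0.135 TPM, from 3, 3 and 1 counts, and in Fb-Skn at 1.11, 0.565 and 1.26 TPM, from 9, 4 and 9 counts. The libraries of Fb-Epn were above all others, and Fb-Par was below Fb-Skn in every library. The log2 fold change was 3.17 for Fb-Epn against Fb-Par (SE 0.47, adjusted p = 5.7e-05), and the exact 95% counting interval of the ratio, from 68 against 7 counts, was 4.34 to 24.4. Relative to Fb-Skn it had a log2 fold change of 1.40 for Fb-Epn (SE 0.39, adjusted p = 0.007) and -1.77 for Fb-Par (SE 0.55, adjusted p = 0.014). The call between Fb-Epn and Fb-Skn was lost in 10 of 18 alternatives, among them DESeq2 and the leaving out of any of 7 libraries, namely each of Fb-Epn and Fb-Skn and replicate 1 of Fb-Par (highest adjusted p = 0.040).

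Bmp6 was the most abundant BMP ligand. It was at 84.2, 94.4 and 96.9 TPM in Fb-Epn, 71.2, 65.0 and 64.3 TPM in Fb-Par and 50.9, 50.4 and 56.3 TPM in Fb-Skn, in 3 separate ranges. edgeR gave a log2 fold change of 0.67 for Fb-Epn against Fb-Skn (SE 0.071, adjusted p = 1.9e-06) and 0.47 for Fb-Epn against Fb-Par (SE 0.070, adjusted p = 5.7e-05), and it was 0.20 for Fb-Par against Fb-Skn (SE 0.073, adjusted p = 0.032). Bmp3, an atypical BMP that opposes the others, was also highest in Fb-Epn, at 40.8 to 43.2 TPM against 21.7 to 23.9 in Fb-Par and 22.5 to 27.6 in Fb-Skn. It passed in all 3 comparisons, but its libraries in Fb-Par and Fb-Skn overlapped in TPM, and this call (log2 fold change -0.33, adjusted p = 9.9e-04) was lost with TPM in place of counts (highest adjusted p = 0.11). Gdf11, a ligand close to myostatin, was highest in Fb-Par, at 40.8, 37.0 and 45.4 TPM against 16.3 to 18.7 in Fb-Epn and 12.6 to 15 in Fb-Skn (log2 fold change -1.23 for Fb-Epn against Fb-Par, adjusted p = 1.6e-08).

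Gdf15, a stress-induced ligand, was between 26.8 and 37.3 TPM in the 9 libraries and passed in no comparison. Gdf6, a relative of Gdf5, was at 0.24 to 1.02 TPM and did not pass either, with a log2 fold change of 1.33 for Fb-Epn against Fb-Par (adjusted p = 0.023). Gdf10, also known as BMP3b, was too low to be tested. It had 6, 17 and 19 counts in Fb-Epn, 0, 0 and 1 in Fb-Par and none in Fb-Skn. With 3 counts per library as the floor it was at least 4.02-fold higher in Fb-Epn than Fb-Skn, and its ratio to Fb-Par had a counting interval of 6.93 to 1649. Bmp5 was at 0 in Fb-Skn and at most 0.273 TPM elsewhere, and Bmp7 was at 0 in 8 libraries and at 0.520 TPM in replicate 2 of Fb-Par.

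Inhba and Inhbb encode the β subunits of the activins, and their orders were opposite in part. Inhba was at 88.2, 93.1 and 77.3 TPM in Fb-Epn, 57.2, 61.2 and 55.9 TPM in Fb-Par and 129.6, 149.9 and 162 TPM in Fb-Skn. Fb-Skn was highest and Fb-Par lowest, with no overlap. Its log2 fold change was -0.91 for Fb-Epn against Fb-Skn (SE 0.075, adjusted p = 1.1e-07), 0.58 for Fb-Epn against Fb-Par (SE 0.079, adjusted p = 2.3e-05) and -1.49 for Fb-Par against Fb-Skn (SE 0.078, adjusted p = 5.3e-10). Inhbb was highest in Fb-Par, at 39.0 to 39.9 TPM against 24.2 to 25.8 TPM in the other types, and Fb-Epn and Fb-Skn did not pass against each other (log2 fold change -0.15, adjusted p = 0.047).

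All 10 receptors and co-receptors were expressed in all types, and 6 of the 8 that passed between Fb-Epn and Fb-Skn were higher in Fb-Epn. Against Fb-Par 9 passed for Fb-Epn, 6 of them higher in Fb-Epn, and between Fb-Par and Fb-Skn 7 passed, 6 of them higher in Fb-Par. Among all tested genes, 43.9%, 38.8% and 45.6% passed in these comparisons, in the same order. The type named first was higher for 23.0%, 20.2% and 23.2% of all tested genes and lower for 20.9%, 18.6% and 22.4%. The largest difference among the receptors and co-receptors was in Tgfbr3, which encodes betaglycan. Betaglycan is a co-receptor that presents TGF-β2 to the signaling receptors and binds inhibin. Tgfbr3 was at 69.0, 65.5 and 64.8 TPM in Fb-Epn, 21.4, 22 and 20.4 TPM in Fb-Par and 12.4, 12.1 and 12.5 TPM in Fb-Skn. Fb-Epn, where Tgfb2 was lowest, had the highest Tgfbr3, and no types overlapped. The log2 fold change was 2.29 for Fb-Epn against Fb-Skn (SE 0.051, adjusted p = 3.8e-14), 1.65 for Fb-Epn against Fb-Par (SE 0.048, adjusted p = 8.3e-13) and 0.63 for Fb-Par against Fb-Skn (SE 0.054, adjusted p = 1.3e-07). Tgfbr3, Chrdl1 and Fst had the order of the macrophage list, Fb-Epn above Fb-Par above Fb-Skn, and the part of macrophages in their levels was not tested.

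Tgfbr2, the ligand-binding type II receptor of TGF-β, was the most abundant receptor. It was at 206, 197 and 196 TPM in Fb-Epn, 207, 204 and 202 TPM in Fb-Par and 109, 122 and 119 TPM in Fb-Skn. Both nerve-derived types were above Fb-Skn and overlapped with each other. edgeR gave a log2 fold change of 0.64 for Fb-Epn against Fb-Skn (SE 0.039, adjusted p = 3.3e-09), 0.66 for Fb-Par against Fb-Skn (SE 0.039, adjusted p = 2.0e-09) and -0.02 for Fb-Epn against Fb-Par (SE 0.038, adjusted p = 0.69). Its type I partner Tgfbr1 was highest in Fb-Par instead, at 35.0, 32.9 and 35.0 TPM against 14.2 to 15.5 in Fb-Epn and 16.7 to 19.5 in Fb-Skn (log2 fold change -1.19 for Fb-Epn against Fb-Par, adjusted p = 1.6e-09). Eng encodes endoglin, a co-receptor common in endothelial and stromal cells. It was lowest in Fb-Epn, with 77.5 ± 5.81 TPM against 178 ± 6.45 in Fb-Par and 168 ± 8.59 in Fb-Skn (SD, n = 3 each), and the last 2 types overlapped. The sum of the pericyte and smooth muscle list was also lowest in Fb-Epn, at 43.6 to 50.7 TPM against 319 to 336 in Fb-Par and 149.9 to 155 in Fb-Skn. In Fb-Skn this sum was mostly Myh11 and Cspg4 (125 and 26.4 TPM on average). Of the 7 markers, 5 were higher and 2 lower in Fb-Epn than in Fb-Skn, and 1 was higher and 4 lower than in Fb-Par. The 9 endothelial markers summed to 24.3 to 38.5 TPM in the 9 libraries, with Egfl7 most of the sum in Fb-Skn (29.3 TPM on average). The part of such cells in the Eng difference was not tested.

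The BMP type I receptor Bmpr1b was highest in Fb-Epn, at 16.7 to 18.8 TPM against 8.26 to 12.2 in Fb-Par and 5.53 to 5.71 in Fb-Skn. It passed in all comparisons, although the smallest of these differences, between Fb-Par and Fb-Skn (log2 fold change 0.65, adjusted p = 0.0032), was lost when replicate 3 of Fb-Par or any 1 of the Fb-Skn libraries was left out (highest adjusted p = 0.017). Acvrl1, a type I receptor known from endothelium, had the same order with smaller differences, at 82.8 to 89.9, 67.6 to 73.5 and 46.6 to 50.8 TPM. Acvr2a, a type II receptor for activins, was at 26.3 to 28.4 TPM in Fb-Epn and at 13.9 to 18.4 TPM in the other types. Bmpr1a, Bmpr2 and Acvr1, receptors for BMPs, differed least, with log2 fold changes between -0.31 and 0.44 in the 3 comparisons. Their calls between Fb-Epn and Fb-Par were lost in 7, 4 and 7 of 19 alternatives. Bmpr2 overlaps a gene on the other strand with up to 1104 counts in a library, and whether strand was used in counting is not given in the sources used here.

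Latent TGF-β binding proteins are matrix proteins, of which some but not all tether the latent ligand, and the 4 genes differed in which type was highest. Ltbp1 was at 35.6, 34.5 and 35.2 TPM in Fb-Epn, 13.4, 12.9 and 12.9 TPM in Fb-Par and 109, 112 and 118 TPM in Fb-Skn. As with Grem1 and Inhba, Fb-Skn was highest and Fb-Par lowest, with no overlap. Fitted log2 fold changes were -1.83 for Fb-Epn against Fb-Skn (SE 0.039, adjusted p = 2.3e-14), 1.43 for Fb-Epn against Fb-Par (SE 0.044, adjusted p = 1.5e-12) and -3.26 for Fb-Par against Fb-Skn (SE 0.043, adjusted p = 1.1e-16). Ltbp2, the most abundant of them, was at 817, 797 and 791 TPM in Fb-Epn, 779, 792 and 807 TPM in Fb-Par and 974, 1024 and 1010.1 TPM in Fb-Skn. Only Fb-Skn stood apart for Ltbp2 (log2 fold change -0.46 for Fb-Epn, SE 0.023, adjusted p = 2.9e-10, and -0.49 for Fb-Par, SE 0.023, adjusted p = 1.3e-10), and the nerve-derived types overlapped (log2 fold change 0.03, SE 0.023, adjusted p = 0.35).

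Ltbp4 was lowest in Fb-Epn, at 9.36, 8.65 and 7.63 TPM against 24.6 to 26.6 in Fb-Par and 20 to 23.2 in Fb-Skn (log2 fold change -1.59 for Fb-Epn against Fb-Par, adjusted p = 4.8e-10). Ltbp3 was between 72.2 and 104 TPM in all libraries and passed only between Fb-Par and Fb-Skn (log2 fold change 0.26, adjusted p = 0.00013), and the limit given for Bmpr2 on the use of strand holds for it too. Bmp1 is not a BMP ligand but a matrix protease that trims procollagens and cleaves chordin. It was at 127, 118 and 129 TPM in Fb-Epn, 155, 164 and 162 TPM in Fb-Par and 186, 187 and 192 TPM in Fb-Skn, in 3 ranges without overlap. Its log2 fold change was -0.74 for Fb-Epn against Fb-Skn (SE 0.039, adjusted p = 7.7e-10), -0.35 for Fb-Epn against Fb-Par (SE 0.039, adjusted p = 3.2e-06) and -0.38 for Fb-Par against Fb-Skn (SE 0.039, adjusted p = 9.0e-07).

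Feedback and target genes are known to be induced by these ligands, and among them the largest differences were in Tgfbi, Id2 and Smad6. Tgfbi, a matrix protein named for its induction by TGF-β, was at 184, 178 and 190.4 TPM in Fb-Epn, 128, 130.2 and 131 TPM in Fb-Par and 20.4, 23.8 and 25.5 TPM in Fb-Skn. Fb-Skn, where Tgfb3 was highest, had by far the lowest Tgfbi. The log2 fold change was 2.85 for Fb-Epn against Fb-Skn (SE 0.058, adjusted p = 1.5e-14), 2.34 for Fb-Par against Fb-Skn (SE 0.059, adjusted p = 1.2e-13) and 0.52 for Fb-Epn against Fb-Par (SE 0.049, adjusted p = 5.8e-07). Macrophages also express Tgfbi, and the macrophage list had the same order of types. Between Fb-Par and Fb-Skn the summed list went from 227 to 243 down to 76.2 to 82.4 TPM, and its part in the Tgfbi difference was not tested.

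Id2 and Smad6 were highest in Fb-Par, as were the ligands Bmp2 and Bmp4. Other target genes had other orders, with Id3 highest on average in Fb-Epn and Msx2 in Fb-Skn. The pericyte and Schwann cell marker lists were also highest in Fb-Par, and their part in the Id2 and Smad6 differences was not tested. The Id genes encode helix-loop-helix inhibitors of transcription that BMPs induce, and Smad6 an inhibitory Smad that acts mainly on the BMP branch. Id2 was at 27.7, 27.1 and 30.4 TPM in Fb-Epn, 75.3, 57.2 and 61.6 TPM in Fb-Par and 24.1, 26.8 and 21.7 TPM in Fb-Skn. Its Fb-Par libraries were above all others (log2 fold change -1.18 for Fb-Epn against Fb-Par, adjusted p = 3.5e-07, and 1.27 for Fb-Par against Fb-Skn, adjusted p = 1.7e-07). Smad6 was at 49.4, 39.7 and 45.9 TPM in Fb-Epn, 89.1, 77.2 and 80.4 TPM in Fb-Par and 48.6, 50.7 and 41.1 TPM in Fb-Skn. Fb-Par was again highest (log2 fold change -0.86 for Fb-Epn against Fb-Par, adjusted p = 2.9e-06), and the other types overlapped. Id1 was at 40.7 to 49.1 TPM in Fb-Epn, 54.4 to 64.3 in Fb-Par and 42.0 to 53.1 in Fb-Skn, so that its Fb-Par libraries were also above all others, but it passed in no comparison (log2 fold change -0.36 for Fb-Epn against Fb-Par, adjusted p = 0.014).

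Id3 was the most abundant target gene, at 876, 834 and 885 TPM in Fb-Epn, 834, 782 and 775 TPM in Fb-Par and 569.9, 575 and 565 TPM in Fb-Skn. Fb-Skn was lowest (log2 fold change 0.46 for Fb-Epn, SE 0.037, adjusted p = 6.9e-08, and 0.33 for Fb-Par, SE 0.037, adjusted p = 2.2e-06). Between Fb-Epn and Fb-Par the difference in Id3 was small (log2 fold change 0.13, SE 0.036, adjusted p = 0.0087) and was lost in 11 of 19 alternatives (highest adjusted p = 0.044). Smad7, the inhibitory Smad of both branches, was between 35.9 and 52.0 TPM in the 9 libraries and passed in no comparison, with log2 fold changes from 0.01 to 0.19.

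**Figure D4:**
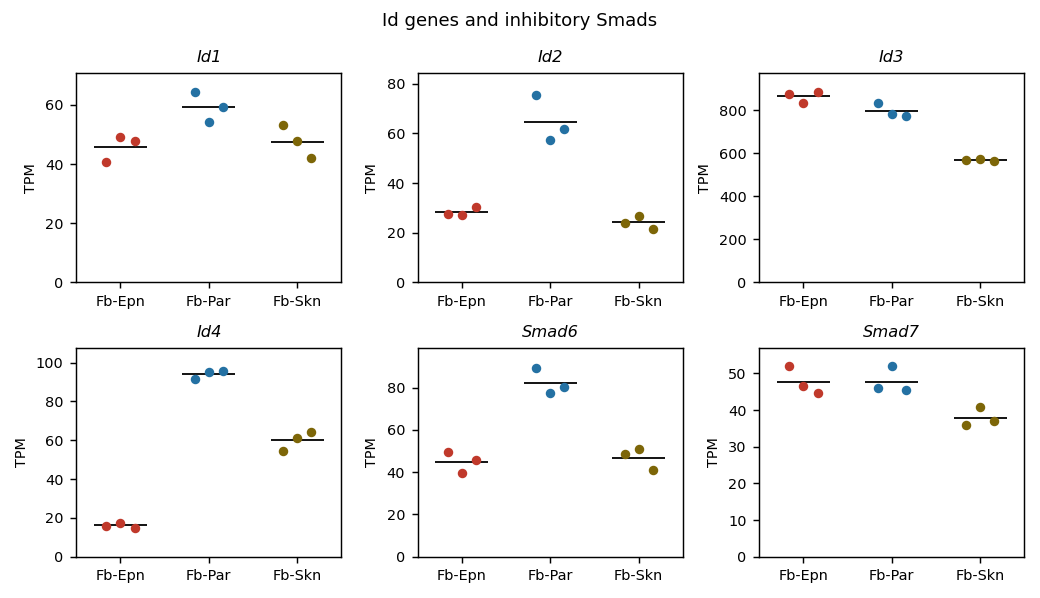
Level (TPM, linear axis from 0 that differs between panels) of the members Id1, Id2, Id3, Smad6 and Smad7 and of Id4 in each library, with a bar for the mean of 3. Id2, Id4 and Smad6 were highest in the 3 Fb-Par libraries, at 57.2 TPM or more, Id3 was lowest in Fb-Skn, and Id1 and Smad7 passed in no comparison.

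Of 69 other genes of the pathway that were followed beside the members, 41 were tested. Between Fb-Epn and Fb-Skn 29 passed (16 higher in Fb-Epn, 13 lower), between Fb-Epn and Fb-Par 26 (13 higher, 13 lower) and between Fb-Par and Fb-Skn 28 (16 higher in Fb-Par, 12 lower). These were 70.7%, 63.4% and 68.3% of the 41, beside 43.9%, 38.8% and 45.6% of all tested genes. In the same order, 7, 5 and 9 of the 41 were DE, beside 8.44%, 6.48% and 8.54% of all tested genes. The 11 DE genes among the 41 included Bmp8a, Acvr2b, Sostdc1, Bmper, Chrdl2, Tll1, Lrrc32, Nrros, Id4 and Msx2. Bmper, which encodes a chordin-like modulator of BMP activity, had the order of Grem1, at 6.54 ± 1.40, 0.665 ± 0.214 and 11.4 ± 0.716 TPM (SD, n = 3 each). Sostdc1, an antagonist of the sclerostin type, and Chrdl2, a second chordin-like gene, had the order of Chrdl1 and no counts in Fb-Skn. For Chrdl2 the difference between Fb-Epn and Fb-Par did not pass (log2 fold change 0.99, edgeR adjusted p = 0.015). With 3 counts per library as the floor, Sostdc1 was at least 28.9-fold higher in Fb-Epn and at least 7.89-fold higher in Fb-Par, both relative to Fb-Skn, and Chrdl2 at least 12.6-fold and 6.31-fold higher.

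**Figure D5:**
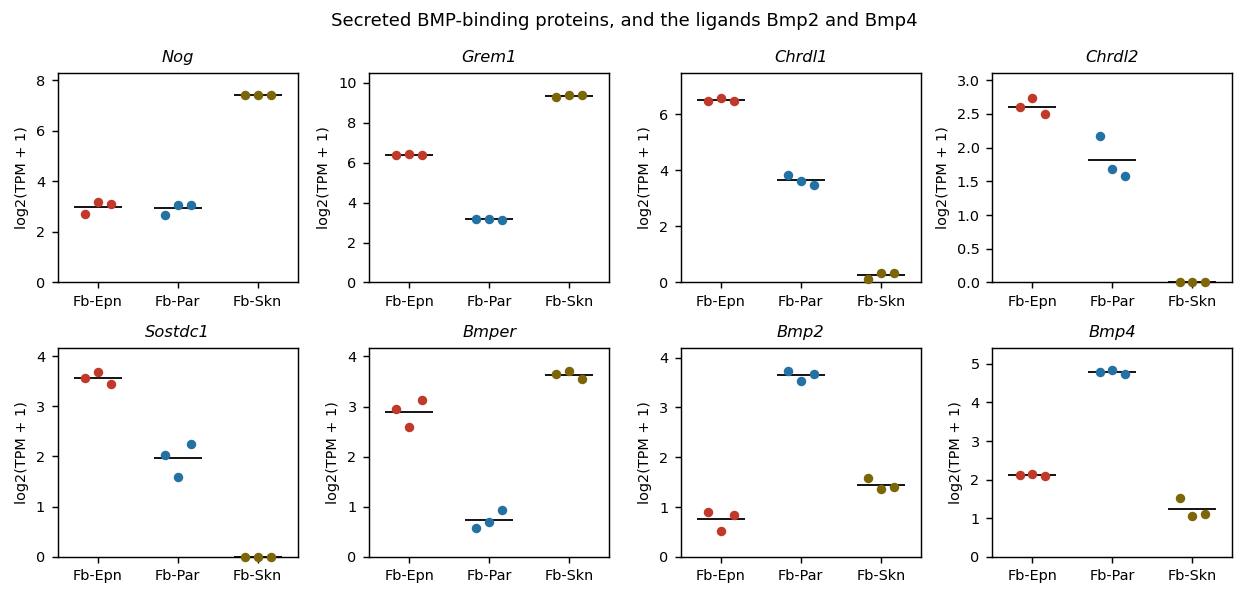
Level of 6 secreted BMP-binding proteins and of the ligands Bmp2 and Bmp4 in each library as log2(TPM + 1), with a bar for the mean of 3 and axes from 0 that differ between panels. Nog, Grem1 and Bmper were highest in Fb-Skn, Chrdl1, Chrdl2 and Sostdc1 in Fb-Epn and near or at 0 in Fb-Skn, and Bmp2 and Bmp4 in Fb-Par.

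Outside the BMP modulators, 2 of the DE genes act on latent TGF-β. Lrrc32 encodes GARP, which holds latent TGF-β at the cell surface, and was at 56.5, 56.4 and 56.8 TPM in Fb-Epn, 218, 214 and 214 TPM in Fb-Par and 9.61, 8.48 and 9.45 TPM in Fb-Skn. Fb-Par was highest and Fb-Skn lowest (log2 fold change 4.40 for Fb-Par against Fb-Skn, SE 0.050, adjusted p = 2.5e-17). Nrros, which does the same in macrophages and microglia, had 4.69 ± 0.524 TPM in Fb-Epn, 1.32 ± 0.457 TPM in Fb-Par and 0.190 ± 0.131 TPM in Fb-Skn (SD, n = 3 each), the order of the macrophage list. Tll1, a protease related to Bmp1, was highest in Fb-Par, at 103 to 107 TPM against 19.7 to 23.8 TPM in the other types (log2 fold change -2.22 for Fb-Epn against Fb-Par, adjusted p = 3.9e-14). Id4 was also highest in Fb-Par, at 94.2 ± 2.13 TPM against 16.1 ± 1.35 in Fb-Epn and 59.8 ± 5.0 in Fb-Skn (SD, n = 3 each), and passed in all 3 comparisons. The part of pericytes and Schwann cells in the levels of Lrrc32, Tll1 and Id4 was not tested either. Msx2, a homeobox gene that BMPs induce, was low but highest in Fb-Skn, at 3.44 to 4.57 TPM against 0.554 to 2.24 TPM elsewhere. Bmp8a had 61 counts in Fb-Par against 10 in Fb-Epn and 9 in Fb-Skn, and its values are uncertain as far as reads were split with its near copy Bmp8b, which was not tested. Acvr2b, a second activin type II receptor, had 47 counts in Fb-Par and 10 in Fb-Skn (log2 fold change 2.03, adjusted p = 0.0066).

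Of the Smads that carry the signal, 5 were tested, of which 3 passed between Fb-Epn and Fb-Skn, 2 between Fb-Epn and Fb-Par and 2 between Fb-Par and Fb-Skn, shares of 60.0%, 40.0% and 40.0% near those of all tested genes (43.9%, 38.8% and 45.6%). Smad3, of the TGF-β branch, was at 36.0 to 36.5 TPM in Fb-Epn and 14.4 to 17.7 TPM in Fb-Skn (log2 fold change 1.02, adjusted p = 6.3e-09). Smad4, the partner shared by both branches, was between 65.4 and 83.4 TPM and passed in no comparison. Of the other target genes, Ccn2, which TGF-β induces, was at 5425 to 5553 TPM in Fb-Epn, 6034 to 6145 TPM in Fb-Par and 6735 to 6879 TPM in Fb-Skn, with no overlap. Smad3, Smad4 and Ccn2 were chosen for mention after their values were seen.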

How the data were processed

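RNA from 9 libraries was sequenced after poly(A) selection and directional library preparation as paired ends of 150 bp. The submitters' processing notes name FastQC 0.11.7, Trimmomatic 0.38, HISAT2 2.1.0, featureCounts 1.6.3 and the rn6 build. The annotation release and the strand setting of the counting are not given in the sources used here. The authors deposited raw counts per gene, TPM and FPKM. The deposited TPM values are counts per gene length scaled to 1000000 per library, and were used for levels. The FPKM table was not used.

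Counts were tested with edgeR 4.0.16 (R 4.3.3) by its quasi-likelihood F test after TMM normalization (factors 0.9546 to 1.028) and filterByExpr, which kept 13273 of 32883 genes. All 9 libraries entered 1 model with a coefficient per type, with Benjamini-Hochberg adjustment over the tested genes of each comparison and a threshold of 0.01. The common biological coefficient of variation was 8.25%. DE genes also had a fold change above 4. SE is the standard error of the log2 fold change. The fits were tested on simulated counts. Alternatives used DESeq2 1.42.0, limma 3.58.1 on log2(TPM + 1) or log2(TPM + 0.1), other scalings and filters, a replicate block, and the leaving out of each library. With 3 libraries a type, an exact permutation test of 1 gene could not go below p = 0.1, so none was used.

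Values in every library and full statistics are given for each DE member and for the most abundant member of each role, and other members by means and ranges. Of the other pathway genes, the DE genes are named. The members, gene lists and marker lists were chosen with earlier results of these data known. Motif windows were taken from RefSeq promoters of build GRCr8. Some DE genes and marker genes are not reported here by name.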

Additional observations from a re-analysis of the deposited data

How the results depend on the processing

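The 17 differences of DE members kept their direction and stayed past the adjusted p threshold of 0.01 in all 317 alternative values that could be computed, and all but 1 stayed above 4-fold, the exception being Gdf5 between Fb-Epn and Fb-Par with limma on log2(TPM + 1) (log2 fold change 1.57). Of the 90 calls of members, 79 held in every alternative, 11 were lost in at least 1, and none was reversed. The largest lost call had a log2 fold change of 1.40 (Gdf5). Leaving out 1 library gave 28 to 30 members past the threshold between Fb-Epn and Fb-Skn, 28 to 33 between Fb-Epn and Fb-Par and 28 to 30 between Fb-Par and Fb-Skn, and 5 to 6, 5 to 6 and 7 to 8 DE members. Requiring at least 10 counts in every library left 2 DE members between Fb-Epn and Fb-Par in place of 5, because Bmp2, Gdf5 and Chrdl1 then drop out of the test. The replicate block gave 28, 31 and 29 members past the threshold in place of 29, 31 and 30. No pairing of libraries by replicate number was seen. Correlations of same-numbered libraries, taken as deviations from the mean of their type, were between -0.0804 and 0.0198. Not every library correlated best with its own number. With 3 libraries a type this check is weak, and a shared rat or batch was not tested. With TPM in place of counts, the median log2 fold change of all genes against Fb-Skn was 0.12 to 0.14, so small differences from Fb-Skn depend on the scaling. Members under 10 counts in a library are limited by depth.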
